A study of Mus musculus with 36 samples.

Results

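The expressed solute carrier transporters of these dendritic cells were the rows of a table of 24127 mouse genes whose symbol has the form Slc, a family number, the letter a and a member number, and whose mean normalized read count over all 36 libraries was 10 or more. Of 331 such rows, 178 met the threshold, 126 had at least 1 read and a lower mean, and 27 had no read in any library. They belong to 45 families and were sorted into 15 substrate classes by family number alone. A class is named for the main substrates of its families, so single members may carry something else. The members were therefore selected on their level, and the levels themselves are given only as a description. Solute carriers are the membrane proteins that move amino acids, sugars, metal ions, nucleosides, vitamins and other small molecules into and out of cells and their organelles. They work by coupled transport, exchange or facilitated passage and do not hydrolyse ATP, unlike the ABC transporters. In dendritic cells and macrophages they set the supply of fuel for glycolysis, arginine for nitric oxide synthesis and iron and zinc for host and microbe, and several sit in the endolysosome, where innate receptors signal.

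The libraries came from bone marrow dendritic cells of C57BL/6 mice grown in GM-CSF and selected for CD11c on their surface. Cells were transfected with 20 ng PAMP RNA, a ligand of the RNA sensor RIG-I that derives from the hepatitis C virus genome, or were mock-treated, and were collected after 1, 3 or 6 h. Dhx58 encodes LGP2, the RIG-I-like receptor without signalling domains. Cells labelled Dhx58-/- are called KO-labelled here and were compared with WT cells. With both genotypes, both treatments and all times there were 12 groups of 3 libraries each: KO-labelled PAMP RNA, KO-labelled mock, WT PAMP RNA and WT mock at each time. The labels describe the 3 as biological triplicates of plating and do not tie them to separate animals, so the p-values cover the spread among libraries of a group, part of which may be technical. How many mice gave marrow, their age and the deleted exons were not given in the sources used here.

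Dhx58 itself was read beside the genotype labels. It averaged 935 ± 111 normalized counts in KO-labelled PAMP RNA cells and 722 ± 87.3 in KO-labelled mock cells at 6 h, against 3005 ± 62.9 in WT PAMP RNA cells and 307 ± 47.6 in WT mock cells (SD, n = 3 each). Its response to PAMP RNA at 6 h was 0.37 log2 units in KO-labelled cells and 3.30 in WT cells, and the difference was called (limma, adjusted p = 3.82e-15), while in mock cells it was higher in KO-labelled than in WT libraries by 1.19 log2 units (limma, adjusted p = 8.35e-17). The count per gene can include exons outside the deletion, so this level does not test the deletion. Libraries held 4740909 to 14255730 reads in genes and 14371 to 15417 detected genes. The 178 transporters took 1.18% to 1.23% of normalized counts in PAMP RNA libraries and 1.32% to 1.40% in mock libraries at 3 and 6 h. Of the fixed cell markers, 8 dendritic cell genes summed to 35941 to 36565 in KO-labelled PAMP RNA and 28822 to 29527 in KO-labelled mock libraries at 6 h, against 42858 to 44658 in WT PAMP RNA and 38073 to 40359 in WT mock libraries. The 5 measured macrophage genes summed to 15676 to 16516 in KO-labelled PAMP RNA and 11994 to 12452 in KO-labelled mock libraries, against 12393 to 13834 in WT PAMP RNA and 10997 to 11419 in WT mock libraries. Both lists moved with both treatment and genotype, and their part in the results below was not tested. Itgax, which encodes CD11c, had a median of 2954, Flt3, a marker of conventional dendritic cells, had a median of 7.9 and Csf1r, the receptor of macrophage colony-stimulating factor, had a median of 5861. The 6 neutrophil genes moved with treatment and genotype too, at a low level. They summed to 195 to 218 in KO-labelled PAMP RNA and 118 to 130.4 in KO-labelled mock libraries at 6 h, against 138 to 155 in WT PAMP RNA and 119 to 138 in WT mock libraries. At 1 h they summed to 210.0 to 252 in KO-labelled mock and 118 to 173 in WT mock libraries, and the part of this list in the results was not tested either. The mast cell, B cell, T and NK cell and erythroid lists each summed to at most 7.42, with Hbb-bs at 0 in every library, and the fibroblast and endothelial list to at most 33.6. In bulk RNA, fewer cells of a type and less RNA per cell cannot be told apart.

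Per kilobase of annotated exon, the mean level was highest for Slc25a5, the mitochondrial ADP/ATP carrier, at 2871 normalized counts. It was followed by the hexose transporter Slc2a6 at 1126, the plasma membrane zinc importer Slc39a1 at 1091, the heme transporter Slc48a1 at 962, the taurine transporter Slc6a6 at 862 and a second ADP/ATP carrier, Slc25a4, at 721. Slc2a1, the GLUT1 glucose transporter, stood at 699, Slc3a2, the heavy chain that brings several amino acid exchangers to the surface, at 644, the peptide and histidine transporter Slc15a3 at 597 and the copper transporter Slc31a2 at 553. The mean normalized count had a median of 237 over the members, 23 members were at 1000 or more and 145 at 50 or more. At the lower edge, Slc14a1, Slc32a1 and Slc26a1 were just inside at 11.2, 11.8 and 12.3, and Slc25a18, Slc16a5 and Slc25a53 just outside at 9.12, 7.81 and 7.30. Of the 178 members, 165 had a mean of at least 10 in every group and 13 passed with at least 1 group below it. Exons of 58 members overlap those of another gene, and the libraries do not keep strand, so reads of both cannot be told apart there.

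PAMP RNA changed the transcript levels of most expressed transporters by 6 h, and more of them fell than rose. A call here is an adjusted p under 0.05 in limma's moderated test on log2(normalized count + 1), adjusted over all 11853 genes with a mean of at least 10. At 6 h 55 members rose and 83 fell in KO-labelled cells, where 35.1% and 36.5% of all genes tested rose and fell, and 51 rose and 77 fell in WT cells, where the shares of all genes were 32.1% and 33.3%. Members that rose were thus 30.9% of the 178 in KO-labelled cells and 28.7% in WT cells, and members that fell were 46.6% in KO-labelled and 43.3% in WT cells. The median member changed by -0.21 log2 units in KO-labelled cells and -0.17 in WT cells, beside -0.029 in KO-labelled and -0.023 in WT cells over all genes tested. At 3 h 42 rose and 65 fell in KO-labelled cells, with 23.8% and 26.9% of all genes doing so, and 30 rose and 54 fell in WT cells, with 19.6% and 22% of all genes. At 1 h the calls were 1 rise and no fall in KO-labelled cells, with 1.19% and 0.169% of all genes, and no rise and 2 falls in WT cells, with 0.801% and 0.143%. On the recovered reads at 1 h edgeR called 2 rises and no fall in KO-labelled cells and 1 fall in WT cells, and DESeq2 called 2 rises and no fall in KO-labelled cells and 2 falls in WT cells. At that time 14 members in KO-labelled and 18 in WT cells had an unadjusted limma p under 0.05. Some unchanged genes pass such a cutoff too, so these counts are not read as a response.

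The balance of rises and falls depended on the scaling of the libraries. Normalized totals were 10297149 to 10494569 in KO-labelled PAMP RNA and 7318097 to 7478000.1 in KO-labelled mock libraries at 6 h, and 9511224 to 9708652 in WT PAMP RNA and 7359444 to 7462243 in WT mock libraries. With every library set to an equal total, 29 members rose and 124 fell at 6 h in KO-labelled cells and 27 rose and 116 fell in WT cells; at 3 h the counts were 28 and 103 in KO-labelled cells and 18 and 97 in WT cells. All genes turned with it: under equal totals 16.9% rose and 66.5% fell at 6 h in KO-labelled cells, where 16.3% and 69.7% of members did, and 16.4% rose and 62.4% fell in WT cells, where 15.2% and 65.2% of members did. At 3 h 14.9% of all genes rose and 56.8% fell in KO-labelled cells, and 13.6% rose and 45.3% fell in WT cells. This scaling moves the median of all genes by -0.48 log2 units in KO-labelled and -0.37 in WT cells at 6 h and by -0.25 in KO-labelled and -0.18 in WT cells at 3 h. Quantile normalization gave 46 rises and 84 falls at 6 h in KO-labelled cells and 44 and 78 in WT cells, and 35 and 74 at 3 h in KO-labelled cells and 25 and 69 in WT cells. Of all genes, 28.4% rose and 41.9% fell at 6 h in KO-labelled cells under it and 26.2% and 39.3% in WT cells, and 19.6% and 36.6% at 3 h in KO-labelled cells and 16.4% and 32% in WT cells. Of the members called, 29 of 55 rises and 74 of 83 falls at 6 h in KO-labelled cells kept their call under all 4 scalings (size factors, TMM, quantile, equal totals), and 27 of 51 rises and 68 of 77 falls did in WT cells. Of all genes called, 1936 of 4162 rises and 3918 of 4332 falls kept theirs in KO-labelled cells. In WT cells 1873 of 3803 rises and 3620 of 3951 falls of all genes did. The opposite call was made under some scaling for 9 of the 55 member rises in KO-labelled cells and 5 of the 51 in WT cells. Each leading member named below as one of the largest rises or falls of a response at 3 or 6 h kept its call under all 4 scalings.

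**Figure D1:**
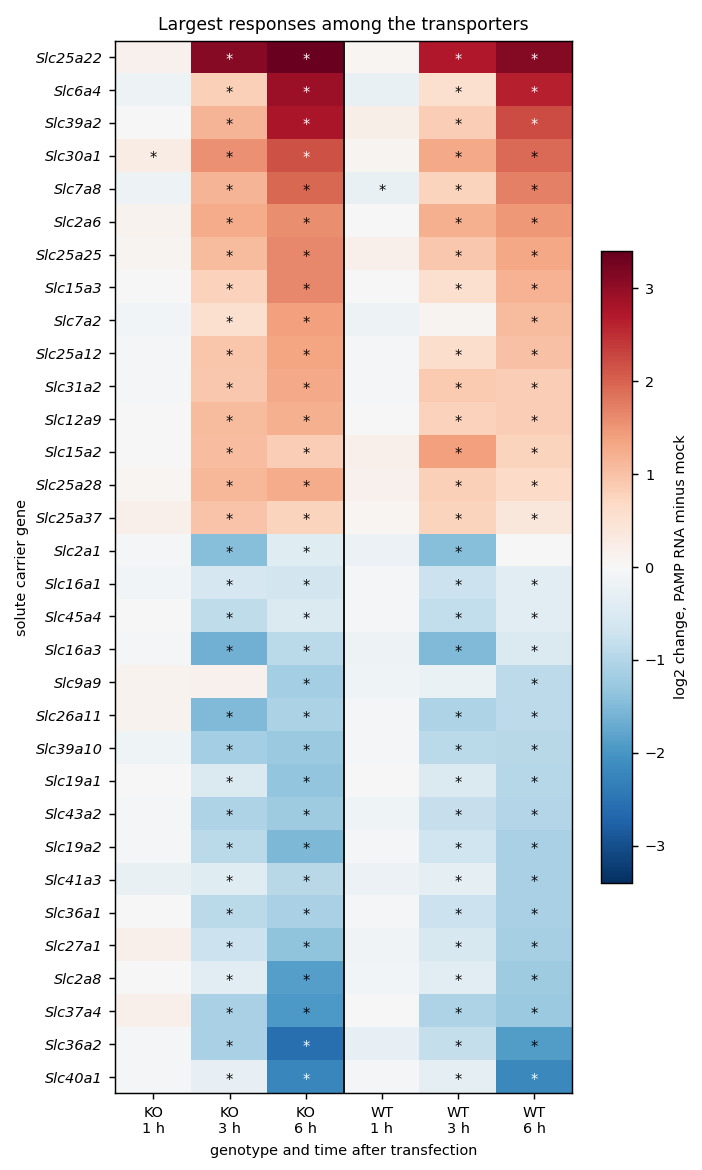
Log2 change, PAMP RNA minus mock, of the members with the largest called rises and falls (rows), in KO-labelled (left) and WT (right) cells at 1, 3 and 6 h (columns). Red is higher and blue lower after PAMP RNA; Slc25a22 leads the rises with 3.37 in KO-labelled and 3.11 in WT cells at 6 h, and the 1 h columns are pale.

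Mitochondrial carriers, the Slc25 family, held the largest rise in both genotypes and the largest fall in KO-labelled cells at 6 h. At 6 h 11 of 36 rose and 19 fell in KO-labelled cells, and 10 rose and 17 fell in WT cells; with equal totals these became 8 rises and 26 falls in KO-labelled and 5 rises and 23 falls in WT cells. The carriers that rose and fell were 30.6% and 52.8% of the class in KO-labelled cells, where 35.1% and 36.5% of all genes did. In WT cells they were 27.8% and 47.2%, where 32.1% and 33.3% of all genes did. Class counts at 6 h with size factors below stand beside the same shares of all genes. With equal totals 16.9% of all genes rose and 66.5% fell in KO-labelled cells, and 16.4% rose and 62.4% fell in WT cells. The equal-total counts of this class and those below stand beside these shares. The median of the carriers was -0.21 log2 units in KO-labelled and -0.18 in WT cells. Slc25a22, which carries glutamate with a proton across the inner membrane, had 2092, 2023 and 2065 normalized counts in KO-labelled PAMP RNA libraries at 6 h, against 204, 205 and 186 in KO-labelled mock libraries. In WT cells it had 1484, 1503 and 1500.4 after PAMP RNA, against 222, 139.8 and 164 in WT mock libraries. The treated and mock libraries did not overlap, and the KO-labelled treated libraries were all above the WT treated ones. The response was 3.37 log2 units in KO-labelled cells and 3.11 in WT cells (SE 0.0997 each; limma, adjusted p = 5.42e-32 in KO-labelled and 2.44e-30 in WT cells), and the difference of the responses, 0.26 log2 units, was not called (limma, adjusted p = 0.263). It was already 3.10 in KO-labelled and 2.72 in WT cells at 3 h. Its annotated span is chr7:141429744-141437892, minus strand (GRCm38, GENCODE), and no annotated exon of another gene overlaps it.

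The 300 bases around an annotated start (250 before, 50 after, from RefSeq, GRCm38.p6) are shown for members picked from the largest called changes in WT cells at 6 h. They are 3 strong rises, Slc25a22, Slc6a4 and Slc39a2, and 1 strong fall, Slc37a4. For Slc25a22 and Slc37a4 only 1 of several windows is shown. Capitals mark the only match to GAAANNGAA, the core of the interferon-stimulated response element. It begins 79 bases before the start in 1 of the 3 Slc25a22 windows. The windows are chr7:141435326-141435625 (minus strand), chr11:76998347-76998646 (plus), chr14:51893360-51893659 (plus) and chr9:44396696-44396995 (plus).
Slc25a22: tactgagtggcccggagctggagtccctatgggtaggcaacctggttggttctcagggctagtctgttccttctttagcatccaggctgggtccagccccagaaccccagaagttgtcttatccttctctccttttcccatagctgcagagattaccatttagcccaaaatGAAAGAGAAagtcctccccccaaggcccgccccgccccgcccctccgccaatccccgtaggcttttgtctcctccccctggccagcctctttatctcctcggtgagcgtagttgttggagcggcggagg
Slc6a4: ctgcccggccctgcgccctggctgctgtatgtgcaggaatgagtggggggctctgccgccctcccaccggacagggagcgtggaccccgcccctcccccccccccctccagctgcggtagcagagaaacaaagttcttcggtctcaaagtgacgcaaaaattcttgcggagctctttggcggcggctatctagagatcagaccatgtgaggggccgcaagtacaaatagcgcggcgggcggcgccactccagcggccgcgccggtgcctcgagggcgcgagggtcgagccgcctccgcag
Slc39a2: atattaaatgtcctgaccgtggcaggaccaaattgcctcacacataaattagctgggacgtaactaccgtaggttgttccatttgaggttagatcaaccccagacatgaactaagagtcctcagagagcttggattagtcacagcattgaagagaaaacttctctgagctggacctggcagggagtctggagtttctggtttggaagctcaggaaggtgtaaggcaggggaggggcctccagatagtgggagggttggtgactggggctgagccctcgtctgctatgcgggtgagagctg
Slc37a4: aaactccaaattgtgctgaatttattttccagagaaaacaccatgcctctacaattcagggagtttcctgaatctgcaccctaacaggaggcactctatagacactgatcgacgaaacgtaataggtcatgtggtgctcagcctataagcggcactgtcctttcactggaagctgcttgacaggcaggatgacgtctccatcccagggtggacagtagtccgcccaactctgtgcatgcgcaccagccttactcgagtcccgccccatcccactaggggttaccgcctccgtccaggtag

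The table held 176 windows for 131 of the 178 members, and none for the fallers Slc40a1 and Slc36a2. On either strand GAAANNGAA occurred in 5.68% of member windows, in 6.52% of 46 windows of members that rose in both genotypes at 6 h, in 5.48% of 73 windows of members that fell in both, and in 8.56% of all 32851 windows of the same length. Slc7a8, described below, held the match GAAAGGGAA beginning 71 bases before its start in chr14:54781837-54782136 on the minus strand. Counted as windows, 3 of members that rose in both genotypes and 4 of members that fell in both held this motif. Slc27a1, described below, is among the members that fell. ACGTG, the core of the hypoxia response element, occurred in 29% of member windows, 34.8% of those that rose and 30.1% of those that fell, against 19.6% of all windows. TTCNNNGAA, the gamma-activated site, occurred in 4.55% of member windows and 8.30% of all. TGACNNNGC, the core of the antioxidant response element, occurred in 19.9% against 12.4%, and TGATGNAA, the C/EBP-ATF element, in 3.98% against 3.97%. Both strands were searched, matches of different motifs may overlap, and these letters are a description of the windows.

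Other carriers that rose moved phosphate, aspartate or iron. Slc25a25, the calcium-regulated ATP-Mg/phosphate carrier, rose by 1.63 log2 units in KO-labelled cells and 1.30 in WT cells at 6 h (SE 0.0849; limma, adjusted p = 3.37e-22 in KO-labelled and 2.12e-18 in WT cells); Naif1, whose exons overlap on the opposite strand, changed by 0.68 in KO-labelled and 0.63 in WT cells at a mean of 87.3 counts. Slc25a12, an aspartate/glutamate carrier of the malate-aspartate shuttle, rose by 1.35 in KO-labelled and 0.99 in WT cells. The mitochondrial iron importers Slc25a37 and Slc25a28, called mitoferrins, rose in both genotypes, Slc25a37 by 0.77 in KO-labelled and 0.38 in WT cells (0.0086 and not called with equal totals in WT cells) and Slc25a28 by 1.27 in KO-labelled and 0.64 in WT cells. The abundant ADP/ATP carrier Slc25a5 fell, changing by -0.19 in KO-labelled and -0.11 in WT cells, and Slc25a4 with -0.23 in KO-labelled and -0.19 in WT cells. Slc25a10 and Slc25a11, the dicarboxylate and oxoglutarate carriers, fell, changing by -0.57 and -0.19 in KO-labelled cells and with -0.49 and -0.28 in WT cells; Rnf167, which overlaps Slc25a11 on the other strand, had -0.56 in KO-labelled and -0.64 in WT cells. Slc25a1, the citrate carrier, rose by 0.26 in KO-labelled and 0.24 in WT cells but had values of -0.23 in KO-labelled and -0.13 in WT cells with equal totals. The largest fall in KO-labelled cells was that of Slc25a42, a carrier of coenzyme A at a mean of 21.0 counts, which is outside the rule for named genes and was picked after its value was seen. It had 2.66, 2.86 and 1.19 normalized counts in KO-labelled PAMP RNA libraries at 6 h, against 25.4, 31.1 and 20.3 in KO-labelled mock libraries. It had 4.72, 15.4 and 10.4 in WT PAMP RNA libraries, against 27.7, 18.6 and 24.2 in WT mock libraries. Treated and mock libraries did not overlap, and it fell, changing by -3.06 in KO-labelled and -1.25 in WT cells (SE 0.284; limma, adjusted p = 2.5e-13 in KO-labelled and 0.000168 in WT cells). The KO-labelled treated libraries hold only a few reads of it, so the size of that change depends on the pseudocount. Slc25a35, Slc25a13 and Slc25a23, picked in the same way, also fell beyond 1 log2 unit in KO-labelled cells, changing by -1.41, -1.07 and -1.07.

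**Figure D2:**
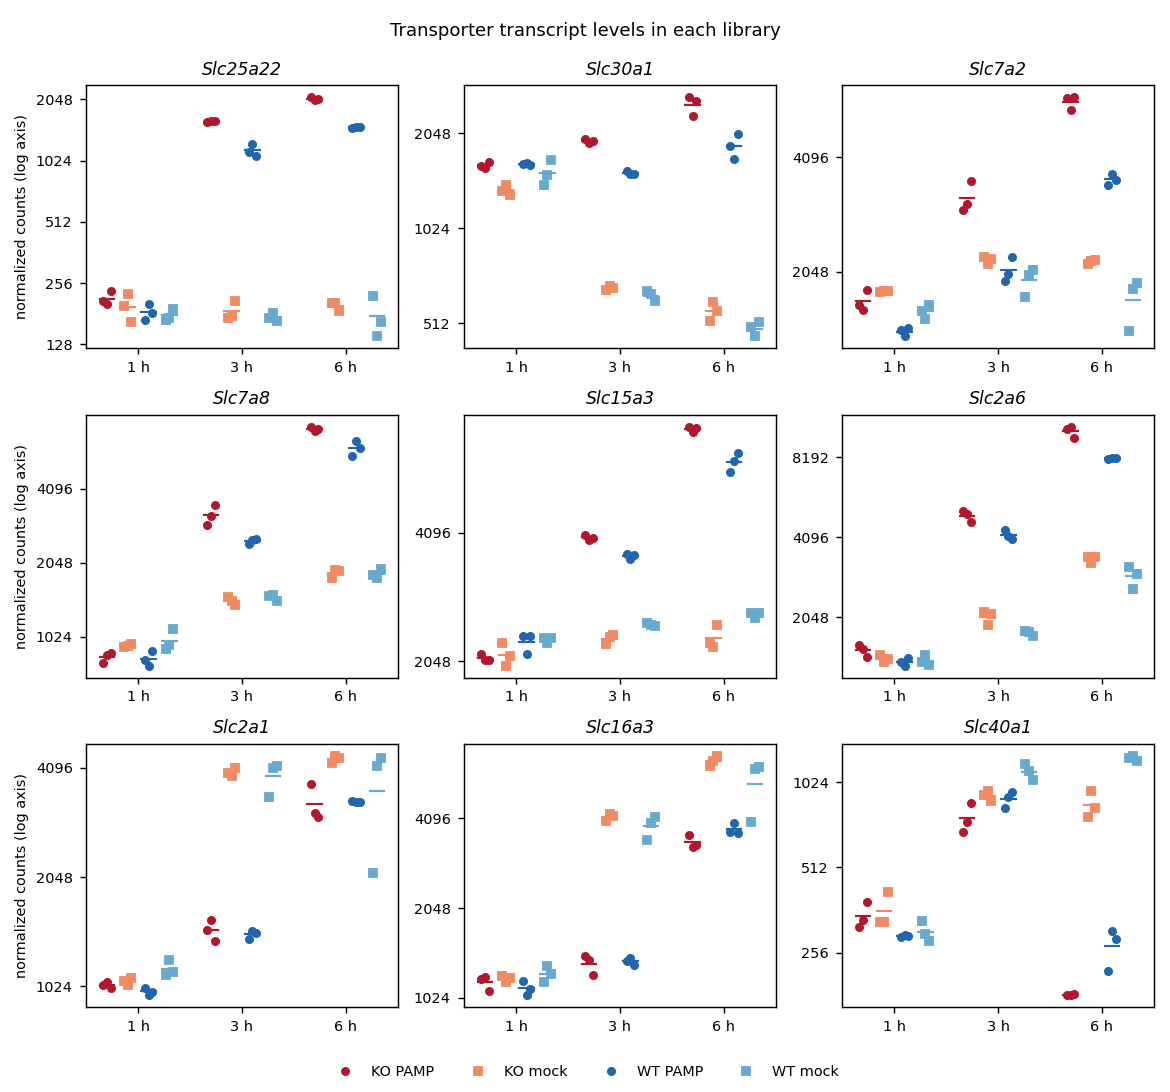
Normalized counts (vertical log axis) of 9 transporters in each library at 1, 3 and 6 h, with 1 point per library and a bar for the mean of its 3 libraries; KO-labelled PAMP RNA, KO-labelled mock, WT PAMP RNA and WT mock stand from left to right at each time. Slc25a22, Slc30a1, Slc7a2, Slc7a8, Slc15a3 and Slc2a6 are higher after PAMP RNA at 6 h, Slc2a1 and Slc16a3 are lowest relative to mock at 3 h, and Slc40a1 drops at 6 h to 182, 182 and 183 in the KO-labelled treated libraries.

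Zinc transporters held further strong rises, of an exporter and of an importer. The Slc30 proteins carry zinc out of the cytosol and the Slc39 proteins carry it in. At 6 h 7 of 18 rose and 6 fell in KO-labelled cells, and 6 and 6 did in WT cells, with 3 rises and 12 falls in KO-labelled and 4 rises and 11 falls in WT cells, with equal totals. Of the class 38.9% rose and 33.3% fell in KO-labelled and 33.3% rose and 33.3% fell in WT cells. Of all genes 66.5% fell in KO-labelled and 62.4% in WT cells with equal totals. The exporter of the plasma membrane, Slc30a1, had 2659, 2318 and 2587 normalized counts in KO-labelled PAMP RNA libraries at 6 h, against 521, 596 and 559.5 in KO-labelled mock libraries. It had 1859, 1697 and 2031 in WT PAMP RNA libraries, against 497, 464 and 514 in WT mock libraries. Treated and mock libraries were apart in both genotypes, and the lowest KO-labelled treated library was above the highest WT treated one. Its response at 1, 3 and 6 h was 0.26, 1.55 and 2.17 log2 units in KO-labelled cells and 0.096, 1.29 and 1.92 in WT cells (SE 0.0595 each). The 1 h rise in KO-labelled cells was the only rise of a member called at that time (limma, adjusted p = 0.00628). Without replicate 3 of the KO-labelled mock or PAMP RNA libraries its adjusted p was 0.0754 or 0.0652 (limma). An opposite-strand transcript, 1700034H15Rik, overlaps its exons and changed by 2.40 in KO-labelled and 1.92 in WT cells at 6 h, at a mean of 148 counts, so part of the reads may belong to either.

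Slc39a2, an importer expressed at a low level, had 101, 107 and 119.9 normalized counts in KO-labelled PAMP RNA libraries at 6 h, against 17.8, 9.50 and 20.3 in KO-labelled mock libraries. It had 88.4, 75.9 and 73.8 in WT PAMP RNA libraries, against 14.3, 17.7 and 17.1 in WT mock libraries. No treated library overlapped a mock one, and the response was 2.77 log2 units in KO-labelled and 2.21 in WT cells (SE 0.173; limma, adjusted p = 2.88e-19 in KO-labelled and 1.2e-15 in WT cells). Mettl17 shares exon sequence with it on the same strand and had values of -0.032 in KO-labelled and -0.16 in WT cells, neither called. Slc30a4, which loads zinc into vesicles, rose by 0.92 in KO-labelled and 0.70 in WT cells. Slc39a10, an importer of the plasma membrane, fell, changing by -1.26 in KO-labelled cells and -0.94 in WT cells. The metallothioneins Mt1 and Mt2, which bind cytosolic zinc, fell at 6 h, with -0.93 and -0.77 in KO-labelled cells and with -0.64 and -0.76 in WT cells. Before that Mt2 was called higher, by 0.68 in KO-labelled and 0.71 in WT cells at 1 h. At 3 h Mt2 was called higher by 0.47 in KO-labelled and 0.42 in WT cells. Mt1 was not called at 1 or 3 h with size factors. The direction of Slc39a1, the most abundant importer, turned with the scaling. It was called higher by 0.20 in KO-labelled and 0.21 in WT cells with size factors, and called lower with equal totals, at -0.29 in KO-labelled and -0.17 in WT cells, and with quantile normalization, at -0.45 in KO-labelled and -0.30 in WT cells. Slc39a14, which also carries iron, fell, changing by -0.25 in KO-labelled cells (limma, adjusted p = 0.0742 with quantile normalization), and had -0.12, not called, in WT cells.

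Among 30 transporters of amino acids and their relatives, strong rises and strong falls stood side by side. At 6 h 10 rose and 13 fell in KO-labelled cells and 10 and 16 in WT cells, with 5 rises and 19 falls in KO-labelled and 4 rises and 20 falls in WT cells, under equal totals. With size factors that is 33.3% and 43.3% of the class in KO-labelled and 33.3% and 53.3% in WT cells. Under equal totals 66.5% of all genes fell in KO-labelled and 62.4% in WT cells. Slc7a8, a large neutral amino acid exchanger, had 7319.6, 7023 and 7142 normalized counts after PAMP RNA in KO-labelled cells at 6 h, against 1781, 1909 and 1902 in KO-labelled mock cells. It had 5586, 6419 and 5999 after PAMP RNA in WT cells, against 1820.3, 1775 and 1934 in WT mock cells. The treated libraries were far above the mock ones, by 1.94 log2 units in KO-labelled cells and 1.70 in WT cells (SE 0.0597; limma, adjusted p = 2.72e-31 in KO-labelled and 9.55e-29 in WT cells). At 1 h it fell, changing by -0.24 in WT cells, 1 of the 2 falls called there, the other being Slc35a3, a Golgi transporter of UDP-N-acetylglucosamine, with -0.23; neither call held with equal totals.

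Slc7a2, the cationic amino acid transporter that supplies arginine, rose at 3 h in KO-labelled cells and not detectably in WT cells. At 3 h it had 2976, 3085 and 3543 normalized counts after PAMP RNA in KO-labelled cells, against 2235, 2151 and 2211 in KO-labelled mock cells. It had 1929.8, 2024 and 2234 after PAMP RNA in WT cells, against 1753, 2007 and 2072 in WT mock cells. The WT groups overlapped at 3 h and the KO-labelled groups did not. At 6 h it had 5874, 5447 and 5894 in KO-labelled treated libraries, against 2151, 2187 and 2198 in KO-labelled mock libraries. It had 3469, 3698 and 3581 in WT treated libraries, against 1428, 1840.2 and 1907 in WT mock libraries. By then treated and mock were apart in both genotypes, with responses of 1.40 log2 units in KO-labelled and 1.07 in WT cells (SE 0.0691; limma, adjusted p = 4.67e-23 in KO-labelled and 1.82e-18 in WT cells). Nos2, which makes nitric oxide from arginine, rose by 3.35 in KO-labelled and 1.91 in WT cells at 6 h, and Arg1, which hydrolyses arginine, fell, changing by -1.99 in KO-labelled and -2.28 in WT cells. Slc3a2 had 4452, 4097 and 4189 in KO-labelled treated libraries, against 1732, 1795 and 1854 in KO-labelled mock libraries. It had 3745, 3559 and 3933 in WT treated libraries, against 1918, 1951 and 1943 in WT mock libraries. Again no treated library met a mock one, and the rise was 1.24 in KO-labelled and 0.95 in WT cells. Its light-chain partner Slc7a5 rose by 0.56 in KO-labelled and 0.51 in WT cells, values of 0.075 in KO-labelled and 0.14 in WT cells, neither called, with equal totals. The cystine/glutamate exchanger Slc7a11, another partner, rose by 0.22 in KO-labelled cells and was at 0.025, not called, in WT cells; with equal totals Slc7a11 was at -0.26 in KO-labelled and -0.35 in WT cells, and with quantile normalization at -0.43 in KO-labelled and -0.51 in WT cells.

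Slc6a4, the serotonin transporter, which belongs to a family of amino acid and amine transporters, rose late. At 6 h it had 197, 198 and 186 normalized counts after PAMP RNA in KO-labelled cells, against 22.8, 27.6 and 23.8 in KO-labelled mock cells. It had 114, 102 and 119 after PAMP RNA in WT cells, against 14.3, 23.3 and 14.4 in WT mock cells. Its groups stood well apart, and the response was 0.80 log2 units at 3 h and 2.92 at 6 h in KO-labelled cells and 0.55 and 2.66 in WT cells (SE 0.19; limma, adjusted p at 6 h = 1.5e-18 in KO-labelled and 6.61e-17 in WT cells). Falls were led by Slc36a2, a proton-coupled transporter of small amino acids, with 37.2, 37.2 and 34.4 in KO-labelled treated libraries, against 246, 224 and 195 in KO-labelled mock libraries. It had 68.4, 68.8 and 67.3 in WT treated libraries, against 273, 283 and 214 in WT mock libraries. These groups did not overlap, and it fell, changing by -2.57 log2 units in KO-labelled and -1.89 in WT cells (SE 0.131; limma, adjusted p = 1.54e-22 in KO-labelled and 2.16e-17 in WT cells). Its lysosomal relative Slc36a1 fell, changing by -1.11 in KO-labelled and -1.12 in WT cells, and Slc43a2, a facilitative carrier of large neutral amino acids, with -1.22 in KO-labelled and -0.99 in WT cells. The glutamine carriers Slc38a1 and Slc1a5 fell, changing by -1.11 and -0.72 in KO-labelled cells and with -0.90 and -0.45 in WT cells.

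The sugar and lactate carriers moved mainly down, and the main ones moved with time in mock cells as well. Of 10 transporters of hexoses and other sugars, 2 rose and 6 fell at 6 h in both genotypes, with medians of -0.45 log2 units in KO-labelled and -0.38 in WT cells. None of 6 transporters of monocarboxylates and related acids rose, while 4 fell in KO-labelled and 3 in WT cells at 6 h. Of the sugar transporters 20% rose and 60% fell, and 66.7% of the monocarboxylate transporters fell in KO-labelled and 50% in WT cells, beside falls of 36.5% of all genes in KO-labelled and 33.3% in WT cells. These medians and the excess of falls had the same direction under all 4 scalings. Equal totals and quantile normalization lower the median of all genes too, so the direction under them adds no separate support. With equal totals 66.5% of all genes fell in KO-labelled and 62.4% in WT cells at 6 h. Slc2a1, the glucose importer, had 1468, 1562 and 1368 normalized counts after PAMP RNA in KO-labelled cells at 3 h, against 3958, 3881 and 4088 in KO-labelled mock cells. It had 1386, 1458 and 1434 after PAMP RNA in WT cells, against 3398, 4099 and 4151 in WT mock cells. All treated libraries were below all mock ones at 3 h, and the change was -1.44 log2 units in both genotypes (SE 0.117; limma, adjusted p = 6.64e-15 in KO-labelled and 1.01e-14 in WT cells). At 1 h it had 968 to 1210.5 in every library, KO-labelled and WT, treated and mock.

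At 6 h Slc2a1 had 3682, 3076 and 3003 normalized counts in KO-labelled treated libraries, against 4225, 4409 and 4355 in KO-labelled mock libraries. It had 3326, 3297 and 3301 in WT treated libraries, against 2096, 4149 and 4352 in WT mock libraries. It fell, changing by -0.42 in KO-labelled cells (SE 0.117; limma, adjusted p = 0.00153) and was at -0.021, not called, in WT cells, where replicate 1 of the mock group lay below all treated libraries and the other 2 above them. Without that replicate the WT value was -0.36 (limma, adjusted p = 5.65e-06). Slc16a3, the lactate exporter MCT4, had 1411, 1375 and 1221 in KO-labelled treated libraries at 3 h, against 4004, 4232 and 4179.8 in KO-labelled mock libraries. It had 1359.9, 1395 and 1317 in WT treated libraries, against 3453, 3946 and 4151 in WT mock libraries. Again every treated library was below every mock one. It fell, changing by -1.63 in KO-labelled and -1.50 in WT cells at 3 h and with -0.90 in KO-labelled and -0.48 in WT cells at 6 h (SE 0.0825), the last value being -0.68 without the same WT mock replicate. Slc16a1, its relative MCT1, fell, changing by -0.61 in KO-labelled and -0.36 in WT cells at 6 h.

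A list of 20 other hypoxia and glycolysis genes moved the same way: 1 rose and 16 fell in KO-labelled cells and 1 rose and 19 fell in WT cells at 3 h, and 2 rose and 17 fell in KO-labelled cells and 2 rose and 16 fell in WT cells at 6 h. Falls were thus 85% of the list in KO-labelled and 80% in WT cells at 6 h, beside 36.5% and 33.3% of all genes. At 3 h falls were 80% of the list in KO-labelled and 95% in WT cells, beside 26.9% and 22% of all genes. The medians of the list were -0.43 in KO-labelled and -0.48 in WT cells at 3 h and -0.71 in KO-labelled and -0.56 in WT cells at 6 h. Bnip3, a mitophagy receptor, fell at 3 h, with -2.71 in KO-labelled and -2.33 in WT cells. So did Pdk1, a pyruvate dehydrogenase kinase, with -1.22 in KO-labelled and -1.24 in WT cells. Ldha, lactate dehydrogenase, fell at that time with -0.35 in KO-labelled and -0.32 in WT cells. Their summed level in WT mock replicate 1 at 6 h was 99715, against 123364 and 123528 in the other 2. In mock cells 19 of the 20 rose between 1 and 3 h, where 26.7% of all genes rose. Between 3 and 6 h 18 rose, where 28.9% of all genes did. The fall after PAMP RNA was thus measured against a level that itself climbed. Slc2a6, a hexose transporter of lysosomes and the cell surface, went the other way, with 10428, 10651 and 9628 normalized counts in KO-labelled treated libraries at 6 h, against 3454, 3289 and 3446 in KO-labelled mock libraries. It had 8078, 8133 and 8096 in WT treated libraries, against 3171, 2615 and 2977 in WT mock libraries. No groups of unlike treatment overlapped, and it rose by 1.59 log2 units in KO-labelled and 1.48 in WT cells (SE 0.0548; limma, adjusted p = 2.79e-29 in KO-labelled and 8.93e-28 in WT cells). Slc2a8, an intracellular hexose transporter, fell, changing by -1.88 in KO-labelled and -1.22 in WT cells, and Slc2a3, at a mean of 49 counts, with -1.83 in KO-labelled and -1.30 in WT cells.

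The 3 peptide and histidine transporters all rose at 6 h in both genotypes, although under equal totals 2 of 3 did. Slc15a3, an endolysosomal transporter of histidine and bacterial dipeptides, had 7265, 7059 and 7201 normalized counts after PAMP RNA in KO-labelled cells, against 2265, 2217 and 2495 in KO-labelled mock cells. It had 5693, 6045 and 6301 after PAMP RNA in WT cells, against 2655, 2592 and 2656 in WT mock cells. The 4 groups did not overlap, the KO-labelled mock libraries lying just below the WT mock ones, and the rise was 1.63 log2 units in KO-labelled and 1.19 in WT cells (SE 0.0467; limma, adjusted p = 1.6e-32 in KO-labelled and 8.21e-27 in WT cells). Tmem132a overlaps its exons on the opposite strand, and at a mean of 1015 counts changed by 0.90 in KO-labelled and 0.66 in WT cells. Slc15a4, which with the adaptor TASL recruits IRF5 in endolysosomal signalling, rose by 0.50 in KO-labelled and 0.51 in WT cells at 6 h, and with equal totals was at 0.013 in KO-labelled and 0.14 in WT cells, neither called. Irf5 rose by 0.86 in KO-labelled and 0.64 in WT cells, the WT value being 0.065 and not called with quantile normalization. Slc15a2, a proton-coupled importer of di- and tripeptides, rose by 0.84 in KO-labelled and 0.76 in WT cells.

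Slc40a1, ferroportin, the exporter of iron from the cell, had the largest fall in WT cells at 6 h. It rose between 1 and 3 h in mock cells and dropped after PAMP RNA between 3 and 6 h. At 3 h it had 684, 739.8 and 867 normalized counts in KO-labelled treated libraries, against 925, 950.5 and 877 in KO-labelled mock libraries. It had 829.9, 910.3 and 941 in WT treated libraries, against 1189, 1118 and 1038 in WT mock libraries. The groups lay close to each other at that time, with changes of -0.27 in KO-labelled and -0.32 in WT cells, and the KO-labelled value was -0.20 (limma, adjusted p = 0.111) without replicate 1 of the treated group. At 6 h it had 182, 182 and 183 in KO-labelled treated libraries, against 772, 950.0 and 828 in KO-labelled mock libraries. It had 222, 305 and 286 in WT treated libraries, against 1247, 1264 and 1212 in WT mock libraries. Every treated library was far below every mock library of its genotype, and the change was -2.21 log2 units in KO-labelled and -2.20 in WT cells (SE 0.0926; limma, adjusted p = 6.74e-26 in KO-labelled and 1.17e-25 in WT cells). Of 9 carriers of iron, copper, magnesium and heme, 2 rose and 5 fell in KO-labelled cells and 3 and 5 in WT cells at 6 h, so 22.2% rose and 55.6% fell in KO-labelled and 33.3% and 55.6% in WT cells. Slc48a1, which brings heme out of the phagolysosome, fell, changing by -0.93 in both genotypes; the overlapping Hdac7 had -1.20 in KO-labelled and -0.75 in WT cells. Slc11a1, the phagosomal metal exporter NRAMP1, fell, changing by -0.42 in KO-labelled and -0.47 in WT cells. The copper transporters Slc31a1 and Slc31a2 rose, by 0.66 and 1.29 in KO-labelled cells and by 0.49 and 0.84 in WT cells. The WT value of Slc31a1 was 0.11 with equal totals and 0.14 with quantile normalization, not called in either. Of the iron partners, the ferritin chain Fth1 was called higher by 0.40 in KO-labelled and 0.34 in WT cells, but its sign turned with quantile normalization, to -0.39, called, in KO-labelled and -0.071, not called, in WT cells. The heme oxygenase Hmox1 fell, changing by -1.09 in KO-labelled and -1.22 in WT cells.

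**Figure D3:**
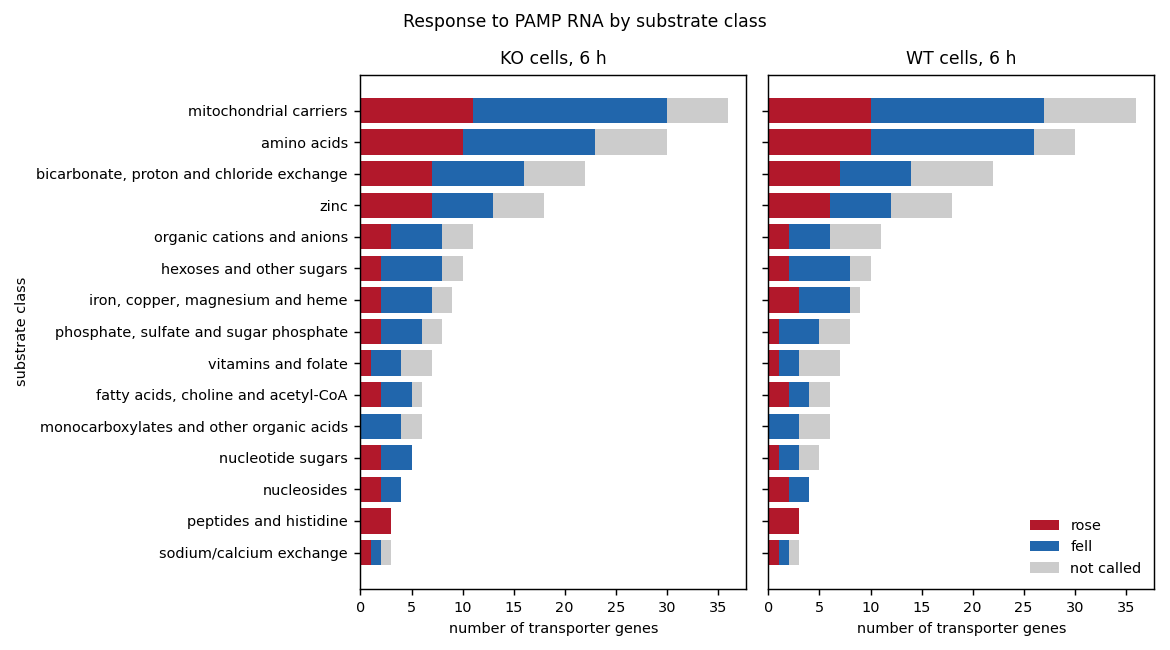
Number of transporters (horizontal axis) in each of 15 substrate classes (vertical axis) that rose (red), fell (blue) or were not called (grey) 6 h after PAMP RNA, in KO-labelled cells (left) and WT cells (right). In both panels all 3 peptide transporters rose and no monocarboxylate transporter did, while the larger classes hold both directions.

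The remaining classes held a few clear movers each. Slc37a4, which brings glucose 6-phosphate into the endoplasmic reticulum, had 101, 90.2 and 98.6 normalized counts after PAMP RNA in KO-labelled cells at 6 h, against 385, 372 and 375 in KO-labelled mock cells. It had 125, 152 and 151 after PAMP RNA in WT cells, against 263, 401 and 386 in WT mock cells. Treated and mock libraries did not overlap, and it fell, changing by -1.96 log2 units in KO-labelled and -1.27 in WT cells (SE 0.105; limma, adjusted p = 9.08e-22 in KO-labelled and 7.76e-15 in WT cells). The thiamine transporter Slc19a2 fell, changing by -1.52 in KO-labelled and -1.10 in WT cells, and Slc19a1, the reduced folate carrier, with -1.35 in KO-labelled and -0.98 in WT cells. Slc23a2, which imports vitamin C, rose by 1.28 in KO-labelled and 0.87 in WT cells. Slc27a1, a fatty acid transport protein, fell, changing by -1.37 in KO-labelled and -1.14 in WT cells. Of the nucleoside carriers, the equilibrative plasma membrane transporter Slc29a1 fell, changing by -1.08 in KO-labelled and -0.73 in WT cells, its lysosomal relative Slc29a3 rose by 0.72 in KO-labelled and 0.57 in WT cells, and the sodium-coupled Slc28a2, at a mean of 25.2 counts, rose by 3.16 in KO-labelled and 2.33 in WT cells (SE 0.296). Slc8a1, the sodium/calcium exchanger, rose by 1.17 in KO-labelled and 0.94 in WT cells. Slc12a9, of the cation-chloride cotransporter family, rose by 1.21 in KO-labelled and 0.83 in WT cells, and Slc26a11, an anion transporter, fell, changing by -1.07 in KO-labelled and -0.90 in WT cells.

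Transporters whose symbols have another form were counted for comparison. The counts of these lists are read beside the shares of all genes, at 6 h 35.1% rising and 36.5% falling in KO-labelled cells and 32.1% and 33.3% in WT cells. Of 27 listed, 23 passed the level filter, and at 6 h 8 rose and 8 fell in KO-labelled cells and 9 rose and 6 fell in WT cells, with medians of -0.10 in KO-labelled and 0.001 in WT cells. A further list held 16 measured genes, those of the stress factors ATF4 and NRF2 and of their targets. Of these 6 rose and 8 fell in each genotype at 6 h, 37.5% and 50%. At 3 h 4 rose and 3 fell in KO-labelled cells, where 23.8% and 26.9% of all genes did. In WT cells 2 rose and 4 fell at 3 h, where 19.6% and 22% of all genes did. Of 12 measured partners in arginine, iron, zinc and TASL pathways, 5 rose and 5 fell in KO-labelled cells and 5 rose and 4 fell in WT cells at 6 h.

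Most transporters called in WT cells were called the same way in KO-labelled cells, as were most of all genes called in WT cells. At 6 h 46 members rose and 69 fell in both genotypes, which is 25.8% and 38.8% of them, beside 29.5% and 29.6% of all genes tested. At 3 h 30 rose and 46 fell in both, 16.9% and 25.8%, beside 18% and 18.6% of all genes, and no member was called in opposite directions. Called in WT cells alone at 6 h were 5 rises and 8 falls, 2.81% and 4.49% of members, beside 2.52% and 3.69% of all genes. At 3 h these were 0 and 8, 0% and 4.49% of members, beside 1.54% and 3.41%. Among those called in both, the change was larger in KO-labelled cells for 38 of 46 rises (82.6%) and 48 of 69 falls (69.6%) at 6 h, beside 82.4% and 72.5% among all genes called in both, and for 27 of 30 rises (90%) and 34 of 46 falls (73.9%) at 3 h, beside 84.2% and 73.7%. The responses of the 2 genotypes do not share control libraries. The test of the difference itself, KO-labelled response minus WT response, called 11 members higher and 12 lower at 6 h, where it called 6.67% and 3.81% of all genes, 5 higher and none lower at 3 h, where it called 2.58% and 0.557%, and none at 1 h, where it called 0.118% and 0%. For the 1 h difference 6 members had an unadjusted p under 0.05 in limma, and edgeR and DESeq2 called none. The 6 are not read as a difference, since some unchanged genes pass an unadjusted cutoff. With equal totals the 6 h counts were 6 higher and 29 lower, and with quantile normalization 5 higher and 15 lower; at 3 h they were 3 higher and 1 lower with equal totals and 3 higher and 2 lower with quantile normalization. All genes turned likewise at 6 h, with 3.21% higher and 10.5% lower under equal totals and 3.21% higher and 4.35% lower under quantile normalization. At 3 h 1.21% were higher and 1.29% lower under equal totals, and 1.31% higher and 0.734% lower under quantile normalization.

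**Figure D4:**
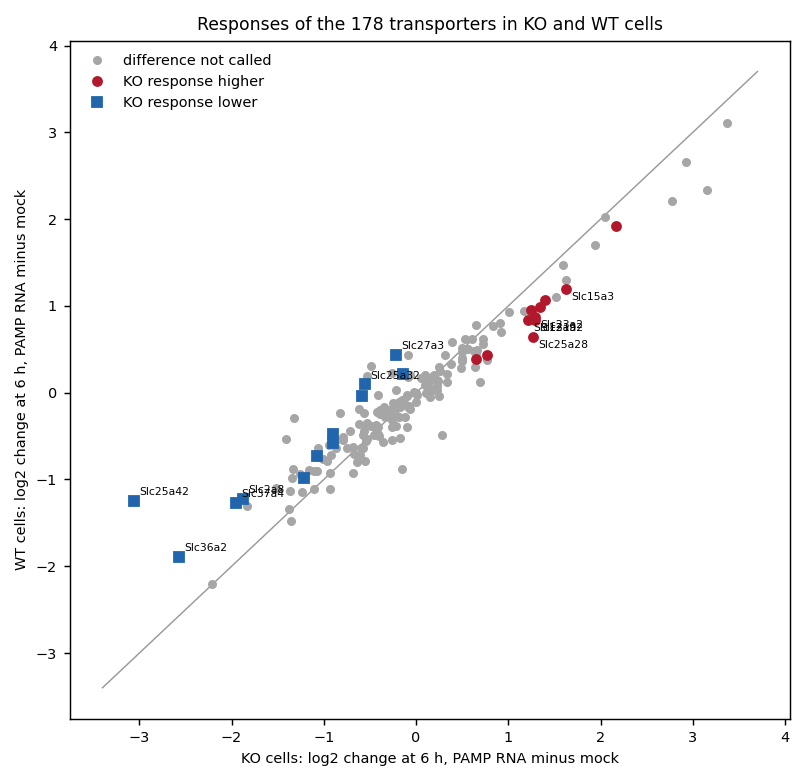
Log2 change at 6 h, PAMP RNA minus mock, of each of the 178 transporters in KO-labelled cells (horizontal axis) and WT cells (vertical axis), with the line of equal change. Red points mark the 11 members whose response was higher in KO-labelled cells and blue points the 12 whose response was lower; most points beyond 1 log2 unit lie on the KO-labelled side of the line.

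Slc25a28 had the largest of the differences called higher in KO-labelled cells at 6 h. It had 321, 298 and 319 normalized counts after PAMP RNA in KO-labelled cells, against 129, 127 and 130.4 in KO-labelled mock cells. It had 279, 192 and 230.4 after PAMP RNA in WT cells, against 154, 145 and 144 in WT mock cells. The KO-labelled treated libraries were above the WT treated ones and the KO-labelled mock libraries below the WT mock ones, a difference of 0.63 log2 units (SE 0.134; limma, adjusted p = 0.00111). Slc31a2 had 2104, 2258 and 2282 in KO-labelled treated libraries, against 884, 882 and 945 in KO-labelled mock libraries. It had 1796, 1712 and 1737 in WT treated libraries, against 1056, 925 and 955 in WT mock libraries. Treated and mock libraries were apart, and the KO-labelled treated libraries were the highest of all. Its difference was 0.45 (limma, adjusted p = 0.000429), that of Slc15a3 was 0.44 and that of Slc23a2 was 0.42. At 3 h Slc8a1 had 620.2, 682 and 689 in KO-labelled treated libraries, against 395, 396 and 377 in KO-labelled mock libraries. It had 478, 486 and 493 in WT treated libraries, against 427, 385 and 376 in WT mock libraries. Its mock groups overlapped and its treated groups did not, and the difference was 0.47 (SE 0.0854; limma, adjusted p = 0.000318). Slc7a2, Slc7a8, Slc25a12 and Slc15a3 were the other 4 higher at 3 h, by 0.45, 0.39, 0.33 and 0.25; the last 2 were not called under quantile normalization (limma, adjusted p = 0.0751 and 0.201) or equal totals (limma, adjusted p = 0.102 and 0.101).

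Among the lower responses at 6 h, Slc37a4 differed by -0.69 log2 units (SE 0.148; limma, adjusted p = 0.00121), and by -0.50 (limma, adjusted p = 0.0134) without replicate 1 of the WT mock group. Slc36a2 and Slc2a8 differed by -0.68 and -0.66; both fell in each genotype and further in KO-labelled cells. Slc25a32, a mitochondrial folate or FAD carrier, fell, changing by -0.55 in KO-labelled cells and was at 0.098, not called, in WT cells, a difference of -0.65 (limma, adjusted p = 0.000705). Slc27a3, of the fatty acid transport protein family, was at -0.22, not called, in KO-labelled cells and rose by 0.44 in WT cells (0.065 and not called with equal totals), a difference of -0.65. The largest difference called lower was that of Slc25a42, described above, at -1.82 (SE 0.402; limma, adjusted p = 0.00168). Without WT mock replicate 1, 17 members were called at 6 h, and Slc27a3 (limma, adjusted p = 0.0529) and Slc12a9 (limma, adjusted p = 0.0803) were no longer among them.

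The responses changed between 3 and 6 h in part of the members. In KO-labelled cells 40 members rose and 55 fell at both times, 13 rose and 27 fell at 6 h alone, 2 went from a fall to a rise and 1 the other way. Over all genes 21.3% rose and 21% fell at both times there, against 22.5% and 30.9% of members, and 12.5% rose and 15% fell at 6 h alone, against 7.30% and 15.2% of members. In WT cells 28 rose and 42 fell at both times, 21 rose and 35 fell at 6 h alone, and 2 went from a fall to a rise. Over all genes 17.8% rose and 16.1% fell at both times there, against 15.7% and 23.6% of members, and 13.3% rose and 16.9% fell at 6 h alone, against 11.8% and 19.7% of members. The 6 h response minus the 3 h response was called higher for 39 and lower for 38 members in KO-labelled cells, where 22.8% and 18.1% of all genes were, and for 43 and 33 in WT cells, where 19.3% and 15% were. Equal totals gave 17 higher and 72 lower in KO-labelled cells and 21 higher and 65 lower in WT cells, and quantile normalization gave 28 higher and 41 lower in KO-labelled cells and 35 higher and 39 lower in WT cells. Over all genes, equal totals gave 10.9% higher and 36.4% lower in KO-labelled cells and 9.18% higher and 31.2% lower in WT cells, and quantile normalization 17.5% higher and 19.8% lower in KO-labelled cells and 14.7% higher and 17.2% lower in WT cells. Slc6a4 gained most, with 2.12 log2 units in KO-labelled and 2.10 in WT cells, and Slc39a2 gained 1.62 in KO-labelled and 1.37 in WT cells. Slc2a1 gained 1.02 in KO-labelled and 1.42 in WT cells as its 3 h fall shrank, and Slc40a1 moved the other way, with -1.94 in KO-labelled and -1.89 in WT cells. Slc9a9, an endosomal sodium/proton exchanger, was at 0.14 in KO-labelled and -0.21 in WT cells at 3 h, neither called, and fell, changing by -1.17 in KO-labelled and -0.89 in WT cells at 6 h.

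Many transporters also changed with time in mock cells, pooled over both genotypes. Between 1 and 3 h 59 members rose and 54 fell, beside 26.7% and 27.7% of all genes, and between 3 and 6 h 42 rose and 50 fell, beside 28.9% and 28.4%. From 1 to 3 h Slc2a1, Slc16a3 and Slc40a1 rose by 1.83, 1.72 and 1.62 log2 units, and Slc7a1, a cationic amino acid transporter, Slc7a5 and Slc30a1 changed by -1.48, -1.35 and -1.16. From 3 to 6 h Slc7a5 fell again, with -2.08, and so did Slc39a2 and Slc6a4, with -1.24 and -0.97. At 6 h Slc7a5 had 130.3, 162 and 143 normalized counts in KO-labelled treated libraries, against 88.8, 111 and 94.3 in KO-labelled mock libraries. It had 132, 167 and 146 in WT treated libraries, against 129, 91.4 and 94.2 in WT mock libraries. With size factors its rise after PAMP RNA was thus a smaller loss than in mock cells. At 1 h the KO-labelled mock libraries had 1162, 1074 and 1156 and the WT mock libraries 924, 1118 and 1159. As given above, the rise was not called in either genotype with equal totals.

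In mock cells, pooled over the 3 times, 20 members were higher and 23 lower in KO-labelled than in WT cells, beside 10.5% and 11.7% of all genes. Slc15a2 was higher by 0.60 log2 units (SE 0.0884; limma, adjusted p = 6.83e-07), and Slc25a37, the thyroid hormone and aromatic amino acid transporter Slc16a10, Slc16a7 and Slc12a7 by 0.35, 0.35, 0.30 and 0.26. Slc4a8, a sodium-driven bicarbonate exchanger, had -0.74 (SE 0.0546; limma, adjusted p = 3.15e-15). Slc22a23, Slc30a4, Slc41a1, a magnesium transporter, and Slc7a11 differed by -0.57, -0.33, -0.29 and -0.29. The dendritic cell markers moved with this contrast too, with sums of 23235 to 24569 in KO-labelled and 33045 to 33200 in WT mock libraries at 3 h, and their part in it was not tested.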

How the data were processed

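The deposited table held 1 value per gene and library, a read count divided by a size factor of the library, which the check of units treats as a signal; the authors' name for it is DESeq-normalized counts. Per the submitters' processing notes TopHat, Cufflinks, DESeq2 and the GRCm38 (mm10) build were used, with no versions; annotation, strand setting and filters were not given in the sources used here. Libraries were made with SMARTer and Nextera XT kits, which keep no strand, and read in 100-base single reads, per the labels' protocols. In every library 100% of values were whole multiples of 1 step within 0.01 read, so reads in genes could be recovered; edgeR and DESeq2 on those reads called 8364 and 8120 genes in KO-labelled cells at 6 h, and 7640 and 7351 in WT cells.

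Log2(normalized count + 1) of the 11853 genes with a mean of at least 10 was fitted with 1 mean per group over all 36 libraries (limma 3.58.1 with a mean-dependent prior, R 4.3.3, 24 residual degrees of freedom), and p-values were Benjamini-Hochberg adjusted over all genes in each of 14 comparisons; fold changes on this scale understate those of low genes. The fit was tested on simulated data. Alternatives were another pseudocount (5), no level filter, TMM, quantile and equal-total scaling, edgeR 4.0.16, DESeq2 1.42.0, a replicate block, the comparison's own libraries and each library left out. Library pairs of a group correlated at 0.989 or more and differed by more than sampling noise (chi-square per gene 1.32 to 5.90), so none was treated as a repeat.

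Genes named are a panel of known myeloid transporters, the up to 10 largest called rises and falls of each response and up to 5 of each other comparison (mean of at least 50, groups not overlapping), the 10 highest levels per kilobase, the members beside the threshold, and called genes of the partner lists; exceptions are stated. The members and lists were chosen with earlier results of these data known. Positions are from GENCODE vM21 and start-site windows from RefSeq.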

Additional observations from a re-analysis of the deposited data

Results flagged for a closer look

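Responses that differed between the genotypes or between 3 and 6 h, by the test of the difference itself, are listed here for a closer look, as log2 units from limma; no explanation was weighed. At 3 h the response of KO-labelled cells exceeded that of WT cells by 0.47 for Slc8a1, 0.45 for Slc7a2, 0.39 for Slc7a8, 0.33 for Slc25a12 and 0.25 for Slc15a3. At 6 h it exceeded it by 0.63 for Slc25a28, 0.45 for Slc31a2, 0.44 for Slc15a3, 0.42 for Slc23a2 and 0.38 for Slc12a9, the last not called with equal totals (limma, adjusted p = 0.176) or quantile normalization (limma, adjusted p = 0.25). The difference at 6 h was -0.69 for Slc37a4, -0.68 for Slc36a2, -0.66 for Slc2a8, -0.65 for Slc27a3 and -0.65 for Slc25a32. Slc15a3 is the only one of these named at both times.

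Between the 6 h and the 3 h response, KO-labelled cells gained 2.12 for Slc6a4, 1.62 for Slc39a2, 1.02 for Slc2a1, 0.89 for Slc3a2 and 0.86 for Slc7a2. They had differences of -1.94 for Slc40a1, -1.48 for Slc2a8, -1.46 for Slc36a2, -1.31 for Slc9a9 and -0.88 for Slc29a1. WT cells gained 2.10 for Slc6a4, 1.42 for Slc2a1, 1.37 for Slc39a2, 1.02 for Slc16a3 and 0.98 for Slc7a2. Their differences were -1.89 for Slc40a1, -1.08 for Slc36a2, -0.83 for Slc2a8, -0.77 for Slc41a3, a magnesium transporter, and -0.76 for Slc25a26, the mitochondrial carrier of S-adenosylmethionine. Without WT mock replicate 1 at 6 h the WT gains were 1.08 for Slc2a1 and 0.82 for Slc16a3.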

How the results depend on the processing

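Over 429 named values, the alternatives kept the call in 6639 cases, lost it in 148 and gained it in 69. In 29 cases the sign changed for a value called in either fit. Changes of sign between values called in neither fit are counted among the 6639. Those 29 changes of sign came only with quantile normalization and equal totals. For KO-labelled cells at 3 h quantile normalization gave -0.051 for Slc7a11, -0.28 for Slc25a3 and -0.42 for Slc25a5, and equal totals gave -0.015 for Slc7a5, -0.18 for Slc15a4, -0.19 for Slc25a3, -0.24 for Slc25a5 and -0.053 for Slc33a1. At 6 h in KO-labelled cells quantile normalization gave -0.43 for Slc7a11 and -0.24 for Slc6a6, and equal totals gave -0.26 for Slc7a11, -0.38 for Slc11a2, -0.23 for Slc25a1 and -0.0048 for Slc20a1. For WT cells at 3 h quantile normalization gave -0.16 for Slc7a2, -0.056 for Slc7a11, -0.088 for Slc3a2 and -0.19 for Slc25a3, and equal totals gave -0.0097 for Slc3a2, -0.14 for Slc25a3, -0.16 for Slc20a1 and -0.011 for Slc33a1. At 6 h in WT cells quantile normalization gave -0.51 for Slc7a11 and -0.29 for Slc6a6, and equal totals gave -0.35 for Slc7a11, -0.078 for Slc7a7, -0.0037 for Slc6a6, -0.13 for Slc25a1 and -0.088 for Slc20a1. Equal totals move the median of all genes down, as given above.

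Members called for the KO-labelled response at 1 h numbered 3 with quantile normalization or equal totals and 2 with edgeR, DESeq2 or the comparison's libraries alone, against 1 reported. For the WT response at 1 h they numbered 0 without the level filter, with equal totals or with the comparison alone and 1 with edgeR, against 2. The difference between genotypes called 8 at 3 h with the comparison's libraries alone, and 35 at 6 h with equal totals; the cause was not tested. Leaving out 1 library at a time gave 0 to 1 calls at 1 h, 95 to 103 at 3 h and 132 to 137 at 6 h in KO-labelled cells, and 0 to 3, 73 to 79 and 118 to 125 in WT cells. For the difference between genotypes it gave 3 to 6 at 3 h and 17 to 27 at 6 h, and for 6 h minus 3 h 66 to 75 in KO-labelled and 67 to 77 in WT cells. In mock cells it gave 36 to 43 between genotypes, 106 to 114 for 3 h minus 1 h and 90 to 97 for 6 h minus 3 h. Between genotypes at 6 h, Slc27a3 lost its call without KO-labelled PAMP RNA replicate 1 (limma, adjusted p = 0.0539) and Slc36a2 without WT mock replicate 3 (limma, adjusted p = 0.0583).

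Replicate numbers do not pair the libraries: over 198 same-numbered pairs the correlation of deviations ran from -0.114 to 0.183 with a median of 0.002, and 12 of 36 libraries were closest to one of their own number. With the replicate block 107 and 138 members were called at 3 and 6 h in KO-labelled cells and 83 and 129 in WT cells, and Slc12a9 lost its call between genotypes (limma, adjusted p = 0.0528). Members near the threshold rest on about 10 reads a library, so changes of their size are poorly resolved.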
